A study of Mus musculus with 8 samples.

Results

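The genes of the SR proteins and of the heterogeneous nuclear ribonucleoproteins (hnRNPs), the main families of general splicing factors, were examined in mouse liver with and without hepatocyte Rbfox2. Members were the protein-coding rows of the count table whose mouse symbol is Srsf followed by a number or begins with Hnrnp. This gave 31 genes, 11 SR and 20 hnRNP, among 46078 rows, and a further 2 rows with such a name were pseudogenes and were left out. Of the 31 genes, 30 passed the filter on low counts and were tested together with all 14654 genes that passed it. Srsf12 did not pass.

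SR proteins bind exonic enhancer sequences through RNA recognition motifs and recruit the spliceosome through a domain rich in arginine and serine, which the SRPK and CLK kinases phosphorylate. The hnRNPs coat nascent transcripts and often repress the use of exons, so that the choice of an exon reflects the balance between both families. Many genes of both families limit their own output by splicing in a poison exon, an often conserved exon with an early stop codon that sends the transcript to nonsense-mediated decay (NMD). RBFOX2 itself binds the RNA motif UGCAUG in introns next to regulated exons, and works in a large assembly of splicing regulators that holds hnRNP M, H, C and UL2.

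Liver RNA was sequenced in 5 WT mice, which carried LoxP-flanked Rbfox2 alleles without Cre, and in 3 Rbfox2 KO mice, which carried the same alleles with an albumin-promoter Cre. All mice went on the diet at 8 weeks of age, drank 30% (w/v) fructose for 22 weeks and were fasted before the livers were taken, and the study used male mice unless it said otherwise. The study used this Cre to delete Rbfox2 selectively in hepatocytes, and whole tissue was sequenced. Whether the other liver cells kept Rbfox2 was not tested here. The comparison asks whether the loss of one splicing regulator changes the transcript levels of the general splicing factors in these livers.

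Total counts ran from 24829693 to 37823155 per liver and did not differ between the groups (two-sided exact permutation p = 0.839). Values are CPM, the usual counts scaled to library size, with library sizes corrected by the TMM factors of edgeR (trimmed mean of M-values). A level of 3 counts, the smallest taken as detected, equals 0.0839 to 0.118 CPM in a liver. The 7 hepatocyte markers, Alb among them, were detected in all 8 livers and summed to between 64340 and 77201 CPM. The deleted gene itself ranged from 14.0 to 23.2 CPM in the WT livers and from 6.84 to 12.4 CPM after deletion, so the groups did not overlap (exact permutation p = 0.0179, the smallest possible). The log2 fold change of Rbfox2 was -1.03 ± 0.21 (SE), at an adjusted p of 0.328 by edgeR and 0.00186 by DESeq2. The study reported that RBFOX2 protein could not be detected by western blot in knockout liver, a measure unlike these transcript counts. In whole tissue, fewer cells of a type and less RNA per cell cannot be told apart. Some livers carried transcripts of other tissues. The 12 pancreatic exocrine genes summed to 477 CPM in Rbfox2 KO 1, where the WT livers had 4.78 to 17.4 CPM and the other Rbfox2 KO livers 4.87 and 5.94 CPM. The 12 skeletal muscle genes summed to 304 CPM in WT 4, 425 CPM in WT 5 and 245 CPM in Rbfox2 KO 1, while WT 1 to 3 had 9.49 to 50.2 CPM and Rbfox2 KO 2 and Rbfox2 KO 3 had 1.26 and 8.50 CPM.

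Poison exons were taken from the annotation as internal exons that occur in a transcript annotated for NMD, hold its stop codon and overlap no exon of a protein-coding transcript of the same gene. There were 8 such exons in 7 members, namely Srsf3, Srsf4, Srsf7, Srsf9, Srsf11, Hnrnpl and Hnrnpll. For Srsf3 and Srsf7, a pair of closely related SR genes, and for the paralogs Hnrnpl and Hnrnpll, the exon is shown from its first base to the stop codon, with the stop codon in capitals. The sequences come from GENCODE mouse release M21 on GRCm38. The exons lie at chr17:29039454-29039909 on the plus strand (Srsf3, 456 bases), chr17:80204622-80205081 on the minus strand (Srsf7, 460 bases), chr7:28817335-28817404 on the plus strand (Hnrnpl, 70 bases) and chr17:80044940-80045022 on the minus strand (Hnrnpll, 83 bases).
Srsf3: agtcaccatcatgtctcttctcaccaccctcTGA
Srsf7: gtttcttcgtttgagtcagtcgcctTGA
Hnrnpl: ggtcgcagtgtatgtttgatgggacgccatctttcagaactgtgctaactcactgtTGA
Hnrnpll: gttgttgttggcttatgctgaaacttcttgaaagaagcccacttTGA
The stop codon came after 34, 28, 59 and 47 bases of the exon, counted to its last base. None of the 8 exons held TGCATG, the DNA form of the RBFOX motif, on the transcript strand. A count per gene adds reads of the poison exon to those of the coding transcripts, so a shift between the forms cannot be read from these values.

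Transcripts annotated for NMD were listed for 19 of the 30 tested members (63.3%), against 28.0% of the 12685 tested protein-coding genes. Among SR genes 9 of 10 had such a transcript, and among hnRNP genes 10 of 20. Transcripts with a retained intron were listed for 22 of 30 members (73.3%), against 58.3% of tested protein-coding genes. TGCATG occurred on the transcript strand of the longest coding transcript in 12 of 30 members (40.0%), 5 SR and 7 hnRNP, against 55.3% of tested protein-coding genes. The density was 0.199 sites per kb in members and 0.282 per kb in all tested protein-coding genes. Introns, where RBFOX proteins are known to bind, were not analysed here, and no match was searched for with other forms of the motif.

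The paralogs Hnrnph1 and Hnrnph2 lay at the opposite ends of the range of fold changes given below, and both held the motif in the 3′ UTR. Their 30-base windows are shown with the motif in capitals, on the plus strand of GRCm38 at chr11:50386202-50386231 (Hnrnph1) and chrX:134606720-134606749 (Hnrnph2).
Hnrnph1: gaacactgttgaTGCATGttgaaaaacatg
Hnrnph2: gaaaacttcagaTGCATGttgaaaaacatg
The windows were identical at 26 of 30 bases and over the last 20 bases without a break. Hnrnph2 held a further pair of motifs in its 5′ UTR. A match of letters is a description and not a binding site.

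Promoter sequences (RefSeq, GRCm38.p6, from 250 bases before to 50 bases after the start) were matched for 29 of 31 members. For a gene with several starts, the highest ratio of observed to expected CG dinucleotides was used. It was above 0.6 in 29 of 29 members, against 72.4% of the 10006 tested protein-coding genes that were matched. The medians were 1.06 and 0.775.

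**Figure D1:**
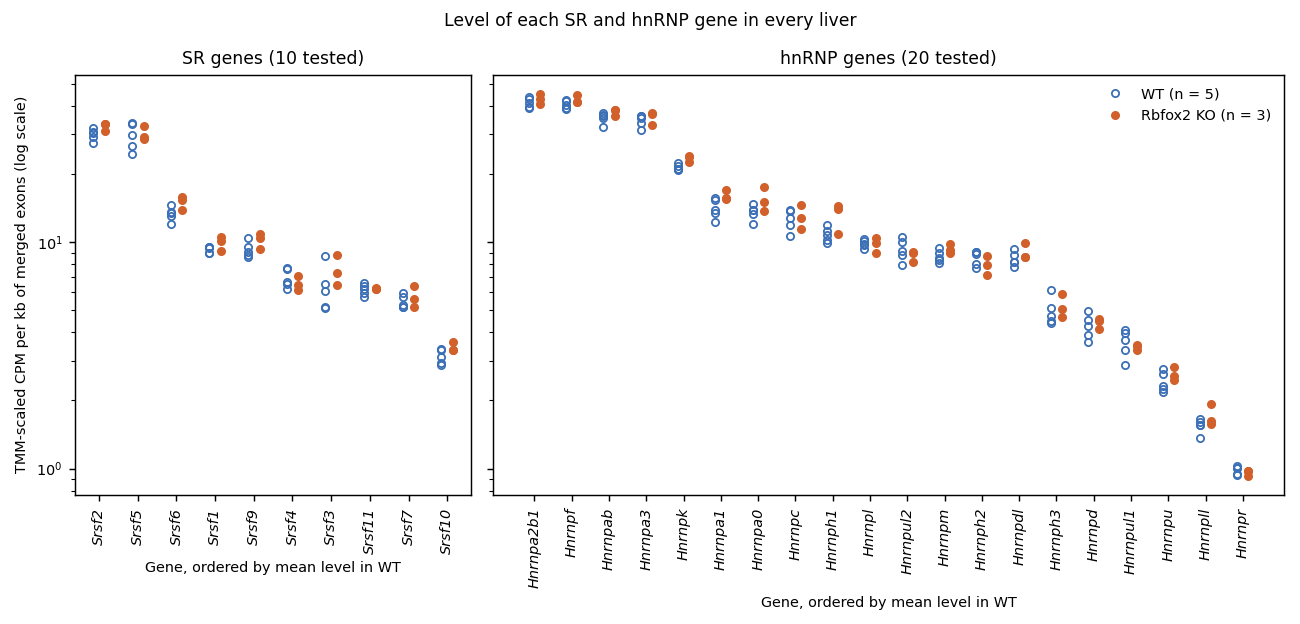
Level of each tested SR gene (left) and hnRNP gene (right) in every liver, as TMM-scaled CPM per kb of merged exons on a log axis. Open circles are the 5 WT livers and filled circles the 3 Rbfox2 KO livers, and the groups overlap for every gene drawn other than Hnrnpk.

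The members spanned a wide range of levels in WT liver. On the scale of CPM per kb of merged exons, the highest hnRNP genes were Hnrnpa2b1 at 41.3 ± 2.04 (SD, n = 5), which encodes a core hnRNP protein, and Hnrnpf at 40.6 ± 1.64, which binds runs of G. Hnrnpab followed at 35.4 ± 1.92 and Hnrnpa3 at 34.5 ± 2.06. The first pair differed by less than their SD, as did the second. Hnrnpll, a paralog of Hnrnpl, and Hnrnpr, a paralog of Syncrip, were the lowest tested hnRNP genes at 1.55 ± 0.109 and 0.984 ± 0.0407. The merged exons of Hnrnpr cover 22199 bases, which lowers a value per kb.

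Among SR genes the order began with Srsf2 at 30.0 ± 1.68 CPM per kb (SD, n = 5), which encodes the nuclear speckle protein SC35, and Srsf5 at 29.6 ± 4.005, and this pair differed by less than the SD. Srsf6 stood at 13.4 ± 0.952. Srsf1, the prototype of the family, followed at 9.30 ± 0.298 and did not differ beyond its spread from Srsf9 at 9.29 ± 0.732. Srsf7, an adaptor for mRNA export, had 5.46 ± 0.378 and Srsf10, a repressor in its dephosphorylated form, had 3.13 ± 0.224. Srsf12 had 1 count in 4 of the 8 livers and 0 counts in the others, below the 3 counts taken as detected, and was not detectable at this depth.

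In CPM, where long transcripts weigh more, the 11 SR genes summed to 507 ± 25.4 in WT (SD, n = 5) and 541 ± 32.4 in Rbfox2 KO (SD, n = 3). The 20 hnRNP genes summed to 1435 ± 42.9 and 1508 ± 36.9. Srsf5 made up 23.2% of the SR sum in WT and Hnrnpa2b1 19.0% of the hnRNP sum.

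These genes varied little between mice. The median coefficient of variation over the 5 WT livers was 7.14% for SR genes and 7.22% for hnRNP genes, against 15.4% for all tested genes and 11.3% for the 6602 tested genes at 10 CPM or more. Srsf3, the smallest SR protein, had 22.8%, the highest of the 30, and was the only member above the median of all tested genes. The next SR gene by variation, Srsf5, had 13.5%. In the hnRNP family Hnrnph3 (14.4%) and Hnrnpul1 (13.9%) varied most and Hnrnpk (2.83%) least.

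Between genotypes the levels of the SR and hnRNP genes differed little. None of the 30 members had an adjusted p under 0.05 by edgeR or by DESeq2, and the largest difference, of Hnrnph1, was a mean in Rbfox2 KO at 121% of the WT mean. By the edgeR quasi-likelihood test with Benjamini-Hochberg adjustment, 0 of 14654 genes passed (0.0%), and by DESeq2 59 genes passed (0.412% of those with an adjusted p), none of them a member. At an unadjusted edgeR p under 0.05 there was 1 member of 30, against 4.74% of all tested genes. DESeq2 gave 2 members at an unadjusted p under 0.05, Hnrnph1 and Hnrnpk, against 4.94% of the genes with a DESeq2 p. Log2 fold changes ran from -0.11 (Hnrnph2) to 0.28 (Hnrnph1). The 95% interval of the fold change lay within 1.5-fold in either direction for 29 of 30 members, the exception being Srsf3, against 58.8% of all tested genes and 5741 of the 6602 at 10 CPM or more.

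**Figure D2:**
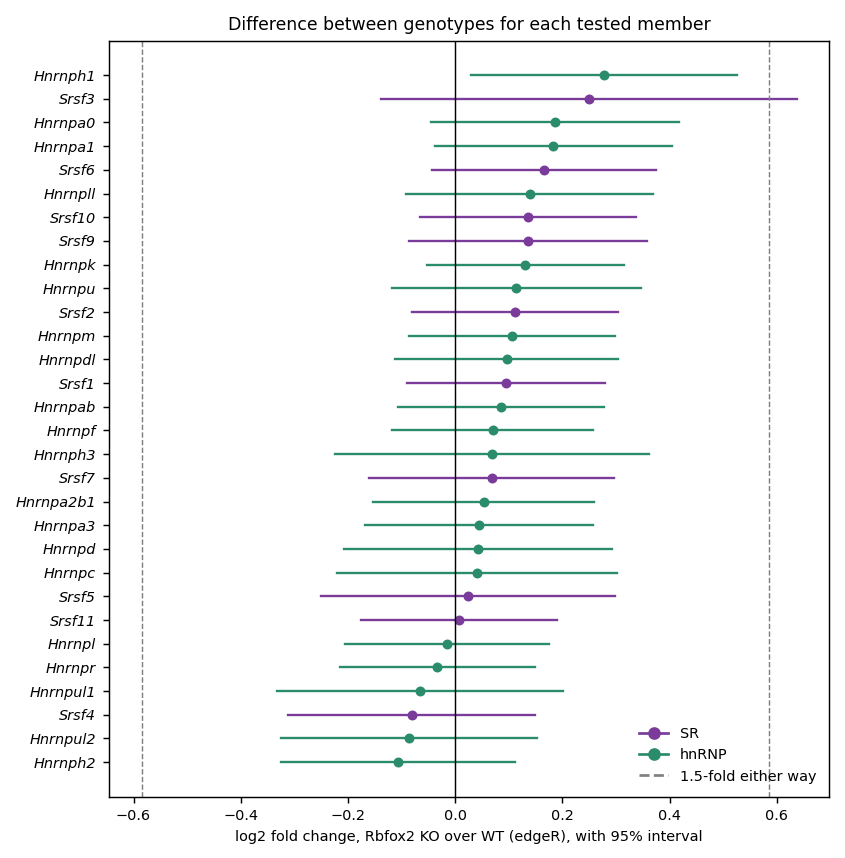
Log2 fold change of Rbfox2 KO over WT (edgeR) for each of the 30 tested members, ordered by value, with its 95% interval, SR genes in purple and hnRNP genes in green. Dashed lines mark 1.5-fold in either direction, which only the interval of Srsf3 crosses, and 24 of the 30 points lie to the right of 0.

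Most members lay slightly above their WT level. The log2 fold change was above 0 in 24 of 30 members, against 50.2% of all tested genes, in 9 of 10 SR genes and in 15 of 20 hnRNP genes. The median log2 fold change was 0.10 for SR genes and 0.07 for hnRNP genes, and 0.000953 for all tested genes. With library totals in place of TMM factors the median of all genes moved to 0.12, 73.8% of all genes and 29 of 30 members were above 0, and relative to that shift the medians were 0.11 for SR and 0.07 for hnRNP genes. Members share libraries and were picked by name, so these counts carry no p.

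In each of the 3 Rbfox2 KO livers most members lay above their WT mean, but the groups overlapped in the sums of both families. The SR sum of Rbfox2 KO 3 was 510 CPM, below WT 1 (536 CPM) and WT 3 (530 CPM). The hnRNP sum of Rbfox2 KO 1 was 1470 CPM, below WT 2 (1489 CPM). Of 30 members, 22, 24 and 21 were above their WT mean in Rbfox2 KO 1 to 3, against 16, 18, 21, 11 and 11 in WT 1 to 5. The WT livers thus covered from 11 to 21 members, and WT 3 matched Rbfox2 KO 3. WT 4 and WT 5, with 11 each, were the WT livers with the highest skeletal muscle sums. Rbfox2 KO 1, with 22, also had a high skeletal muscle sum, at 245 CPM. The part of these transcripts in the count was not tested. Rbfox2 KO 1 had the highest value of all livers for 9 members, and Rbfox2 KO 2 and Rbfox2 KO 3 for 6 each. The matching counts per liver over all tested genes were not computed. A trait of the members and one of a whole library thus cannot be told apart in these counts per liver. Without Rbfox2 KO 1, the liver with pancreatic transcripts, 21 of 30 members were above 0, against 46.8% of all tested genes, and the medians were 0.07 for SR and 0.08 for hnRNP genes. Without WT 4 and WT 5 there were also 21 of 30 members above 0, against 51.1% of all tested genes, with medians of 0.09 and 0.05. Without these livers and Rbfox2 KO 1 there were 23 of 30, against 49.3%, with medians of 0.05 for both families, and the ratio of the SR sums was 1.001.

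**Figure D3:**
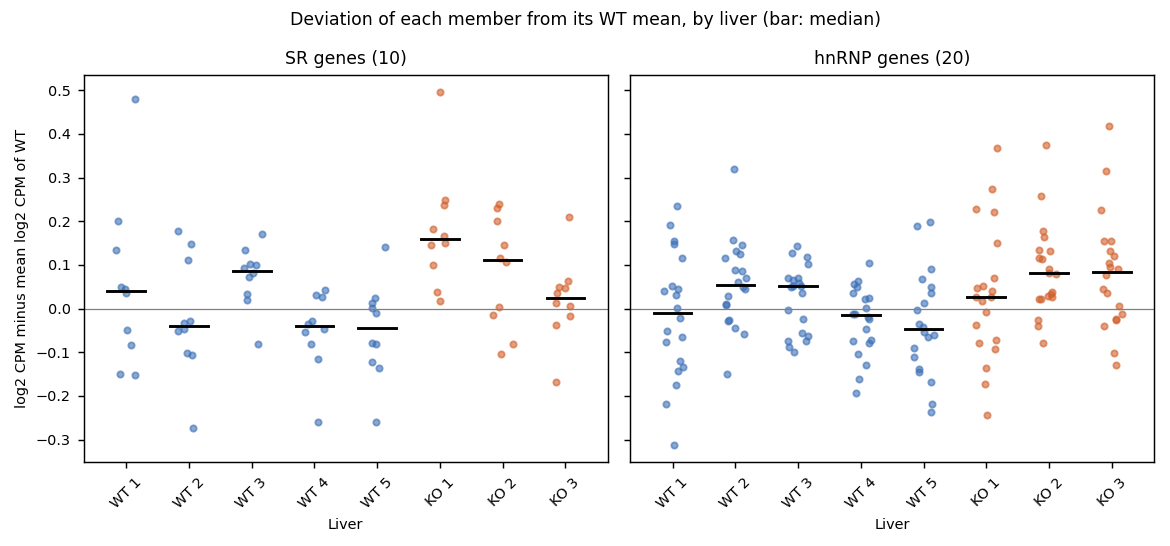
Log2 CPM of each member minus its mean log2 CPM over the 5 WT livers, by liver, for the 10 tested SR genes (left) and the 20 hnRNP genes (right), with bars at the median. The SR median was highest in Rbfox2 KO 1 (0.16) and Rbfox2 KO 2 (0.11), with WT 3 (0.09) and WT 1 (0.04) above Rbfox2 KO 3 (0.02).

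Srsf3 had the largest log2 fold change among SR genes and the widest interval. The WT livers 1 to 5 had 68.4, 40.5, 51.8, 48.0 and 40.9 CPM, and the Rbfox2 KO livers 1 to 3 had 69.1, 57.8 and 51.1 CPM. WT 1 and Rbfox2 KO 1 were level at the top and the groups overlapped. The log2 fold change was 0.25 ± 0.17 (SE), with a 95% interval of -0.14 to 0.64. WT 1 and Rbfox2 KO 1 were also the livers with the highest sums of pancreatic exocrine transcripts (17.4 and 477 CPM), whose part in the level of Srsf3 was not tested.

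Srsf6 had the smallest p among SR genes, which was above 0.05 even without adjustment. The WT livers had 57.8, 62.9, 70.4, 65.6 and 64.8 CPM and the Rbfox2 KO livers 76.2, 73.7 and 66.4 CPM, with WT 3 above Rbfox2 KO 3. Its log2 fold change was 0.17 ± 0.09 (SE). Srsf10 ranged from 20.2 to 23.6 CPM across WT and from 23.4 to 25.3 CPM across Rbfox2 KO livers, and Srsf2 from 81.3 to 94.4 and from 91.5 to 97.9 CPM. The groups of both genes overlapped at their edges, and the log2 fold changes were 0.14 ± 0.09 and 0.11 ± 0.09 (SE).

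The other SR genes were closer to WT. Srsf9 had a log2 fold change of 0.14, Srsf1 of 0.09, Srsf7 of 0.07 and Srsf5 of 0.02, with SE from 0.08 to 0.12. Srsf5, an SR gene known to respond to insulin, ranged from 97.8 to 134 CPM across WT and from 114 to 130 CPM across Rbfox2 KO livers, so the WT range held all 3 Rbfox2 KO livers. Srsf4 was the only SR gene with a negative value, -0.08 ± 0.10 (SE), and Srsf11 had 0.00685, both named after their values were seen. All 3 Rbfox2 KO livers had between 52.3 and 52.8 CPM of Srsf11.

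Among hnRNP genes, Hnrnph1 had the largest difference. Hnrnph1 encodes hnRNP H1, which binds runs of G and belongs to the RBFOX assembly. WT 1 to 5 had 57.9, 69.7, 62.8, 59.8 and 65.2 CPM, and Rbfox2 KO 1 to 3 had 63.8, 81.7 and 84.1 CPM. Rbfox2 KO 2 and Rbfox2 KO 3 were above every WT liver, and Rbfox2 KO 1 was among them. This was a log2 fold change of 0.28 ± 0.11 (SE), and the unadjusted edgeR p was under 0.05. The adjusted p was 0.990 by edgeR and 0.830 by DESeq2. Without WT 3, WT 4, Rbfox2 KO 2 or Rbfox2 KO 3 no member had an unadjusted edgeR p under 0.05. Its paralogs differed from it in sign or size: Hnrnph2 had -0.11 ± 0.10 (SE), named after its values were seen, Hnrnph3 had 0.07 ± 0.13 and Hnrnpf had 0.07 ± 0.08. Whether the paralogs differed from each other in response was not tested.

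Hnrnpk, which encodes a KH-domain protein that binds runs of C, was the only member whose groups did not overlap. WT 1 to 5 had 136, 136, 144, 141 and 135 CPM, and Rbfox2 KO 1 to 3 had 154, 155 and 146 CPM. Rbfox2 KO 3 was just above WT 3. This was a log2 fold change of 0.13 ± 0.08 (SE), and the unadjusted p was under 0.05 by DESeq2 and not by edgeR. Groups that did not overlap and were higher in Rbfox2 KO occurred in 1 of 30 members and in 1.89% of all tested genes.

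Hnrnpa1, the best studied repressor of the family, was at 49.5, 48.4, 43.7, 38.9 and 42.6 CPM in WT 1 to 5 and at 53.7, 48.8 and 49.5 CPM in Rbfox2 KO 1 to 3. The groups overlapped through WT 1. Its log2 fold change was 0.18 ± 0.10 (SE), and that of Hnrnpa0, a binder of AU-rich elements, 0.19 ± 0.10. The WT livers had 32.3 to 39.6 CPM of Hnrnpa0 and the Rbfox2 KO livers 46.9, 36.8 and 40.4 CPM, and without Rbfox2 KO 1 its value fell to 0.08.

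The abundant hnRNP genes stayed close to WT. Log2 fold changes were 0.05 for Hnrnpa2b1 (SE 0.09), 0.04 for Hnrnpa3 (SE 0.10), 0.09 for Hnrnpab (SE 0.09) and 0.07 for Hnrnpf (SE 0.08), each with a 95% interval that held 0. Hnrnpll had 0.14 ± 0.10 (SE), Hnrnpm 0.11 ± 0.09, Hnrnpr -0.03 ± 0.08 and Hnrnpul1 -0.07 ± 0.12. Of the other known partners of RBFOX2, Hnrnpc had 0.04 ± 0.12 (SE) and Hnrnpul2 -0.09 ± 0.11, both named after their values were seen. The 5 hnRNP genes below 0 were Hnrnph2, Hnrnpl, Hnrnpr, Hnrnpul1 and Hnrnpul2, from -0.11 to -0.02.

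Several members share sequence with other genes, so their counts are uncertain where reads with many alignments or unstranded counting played a part. Of 31 members, 10 shared no stretch of 100 bases of the longest coding transcript, on either strand, with another gene's transcripts, and 9 shared more than 20% of such stretches. The highest shares were 62.5% for Srsf4, all with the overlapping transcript Gm12992 at 0.904 CPM, 56.3% for Hnrnpf and 42.2% for Hnrnpa1. Hnrnpf shares sequence with 5 counted pseudogenes, which summed to 93.5 ± 7.76 CPM in WT (SD, n = 5) and 95.2 ± 2.45 CPM in Rbfox2 KO (SD, n = 3), or 43.1% of gene and pseudogenes together in WT. Hnrnpa3 shares sequence with 21 pseudogenes at 134 ± 11.3 and 127 ± 25.1 CPM, 41.9% of the combined sum. That sum leaves out Gm6793, annotated as protein-coding, which shares 18.1% of the stretches of Hnrnpa3 and had a mean of 30.3 CPM over all livers. Adding the pseudogenes gave a log2 ratio of the means of 0.05 for Hnrnpf, -0.00829 for Hnrnpa3 and 0.19 for Hnrnpa1. Srsf2, Srsf4, Hnrnpab and Hnrnpf also had over 10% of their exon bases under exons of the opposite strand. Hnrnpm shared 27.9% of its stretches with the neighbouring gene March2.

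Genes that act with the SR and hnRNP proteins were compared by 7 lists holding 109 genes, of which 108 were tested. None of the 108 had an edgeR adjusted p under 0.05 (0 genes), and at an unadjusted p under 0.05 there were 4, namely Tra2a, Tra2b, Tardbp and Ccnb1, against 4.74% of all tested genes. DESeq2 called 1, Tra2a, against 0.412% of all genes with a DESeq2 adjusted p.

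**Figure D4:**
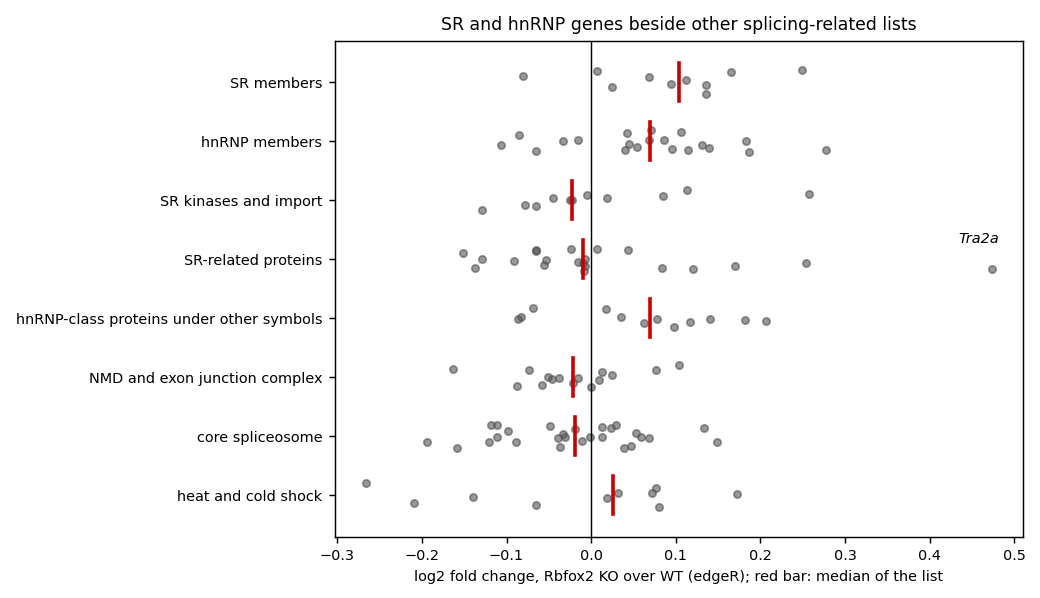
Log2 fold changes (edgeR, Rbfox2 KO over WT) of the tested genes in each family and list, with red bars at the list median and Tra2a labelled. The medians of SR genes, hnRNP genes and hnRNP-class genes under other symbols lie above 0, between 0.07 and 0.10, and those of the other lists between -0.02 and 0.03, while the proliferation list is not drawn.

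Among 21 SR-related proteins 7 were above 0 and 14 below, with a median log2 fold change of -0.01. Tra2a and Tra2b encode the Transformer-2 proteins, which carry arginine-serine domains like SR proteins and activate exons rich in GAA repeats. For Tra2a, WT 1 to 5 had 15.6, 17.3, 16.8, 16.9 and 16.6 CPM and Rbfox2 KO 1 to 3 had 24.7, 23.7 and 20.9 CPM, with every Rbfox2 KO liver above every WT liver. The log2 fold change was 0.47 ± 0.09 (SE; adjusted p = 0.289 by edgeR and 0.00259 by DESeq2). Tra2b ranged from 31.8 to 33.5 CPM across WT and from 37.6 to 40.6 CPM across Rbfox2 KO livers, again without overlap. Its log2 fold change was 0.25 ± 0.08 (SE), with an adjusted p of 0.824 by edgeR and 0.162 by DESeq2. Groups that did not overlap and were higher in Rbfox2 KO occurred in 2 of the 21 genes and in 1.89% of all tested genes.

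Of 11 tested kinases and import factors of SR proteins, 4 were above 0 and 7 below, with a median of -0.02. Clk4, a kinase that phosphorylates SR proteins in the nucleus, had 0.26 ± 0.12 (SE) and Srpk1, its cytoplasmic counterpart, -0.13 ± 0.11. Srpk3 was not tested, with 0.0351 to 0.325 CPM per liver. Among 12 hnRNP-class proteins that go by other symbols, 9 were above 0 and 3 below, with a median of 0.07. Tardbp, which encodes TDP-43, ranged from 57.9 to 69.4 CPM across WT and from 67.2 to 74.9 CPM across Rbfox2 KO livers, at a log2 fold change of 0.21 ± 0.09 (SE). Rbmx had 0.18 ± 0.12.

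The machinery that carries out splicing and decay had medians just below 0. Of 27 core spliceosome genes 11 were above 0 and 16 below, with a median of -0.02. Snrnp200, the helicase that unwinds U4 from U6, had -0.19 ± 0.11 (SE) and Snrpb, an Sm ring protein, 0.13 ± 0.11. Of 15 NMD and exon junction genes 5 were above 0 and 10 below, with a median of -0.02, where Smg6, the endonuclease of NMD, had -0.16 ± 0.12 and Upf3a 0.10 ± 0.13. No test compared these lists with the SR and hnRNP genes.

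Stress and growth genes were listed because SR phosphorylation changes with heat and in mitosis. Of 10 heat and cold shock genes 6 were above 0 and 4 below, with a median of 0.03. Hspa1a had -0.27 ± 0.35 (SE) and the cold-induced Rbm3 0.17 ± 0.09. Of 12 proliferation genes 11 were above 0, with a median of 0.58, and their sum was 73.2 CPM in Rbfox2 KO 1 where the WT livers had 36.7 to 40.5 CPM and the other Rbfox2 KO livers 32.5 and 39.0 CPM. Ccnb1 had 5.71 CPM in Rbfox2 KO 1 and 0.105 to 0.419 CPM in the other livers, and Birc5 5.15 and 0.886 to 1.52 CPM. The sum of the 5 stellate cell markers was also highest in Rbfox2 KO 1, at 245 CPM against 139 to 184 CPM in the other livers. Dcn, Col1a1 and Col3a1 were highest there, Lrat and Reln were highest in WT 5, and none of the 5 was at 0 in any liver. The part of these transcripts in the SR sum, which was highest in the same liver at 575 CPM, was not tested, and without that liver the ratio of the SR sums fell from 1.07 to 1.03, while that of the hnRNP sums was 1.05 and 1.06.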

How the data were processed

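The authors sequenced poly(A)-selected RNA from flash-frozen livers, aligned the reads with TopHat2 2.0.11 to GRCm38 and counted reads per Ensembl gene with featureCounts. The deposited values are these raw counts. The strand setting of the counting and the treatment of reads with many alignments are not given in the sources used here. Each mouse is 1 sample, and groups and numbers were taken from the labels.

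Symbols, types and transcripts came from GENCODE M21, which matched 45229 of 46078 rows. Genes were filtered with filterByExpr, scaled by TMM and compared by a robust quasi-likelihood fit in edgeR 4.0.16 under R 4.3.3. The model held genotype alone, and p was adjusted over all tested genes (Benjamini-Hochberg, 0.05). The study named DESeq2 and edgeR-voom-limma without saying which served here, so DESeq2 1.42.0 and limma 3.58.1 were alternatives, beside other scalings, filters, a replicate block and leaving out each liver. The floor of 3 counts covers counting error only. Lists were described by counts and medians, with no test over members.

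The members and lists were chosen with earlier results of these data known. Named with values were, in each family, the 6 members with the smallest unadjusted edgeR p, the 4 highest and 2 lowest per kb, the 2 most variable in WT, and any whose groups did not overlap, that passed an adjusted threshold or that failed the filter. In each list these were the 2 genes with the smallest p and any past a threshold. The count of members above 0, and the fits without WT 4 and WT 5, were added after the data were seen.

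Counts simulated for this comparison over 14654 genes served as a test of the fits. Of 100 genes shifted by 1 on the log2 scale and 100 shifted by 2, edgeR recovered 60 and 83, and 6 of its 149 calls were false. DESeq2 recovered 71 and 87, and 29 of its 187 calls were false. No shift smaller than 1 was simulated, and the log2 fold changes of the members were all smaller, at most 0.28. No pair of livers within a group agreed within sampling noise (chi-square per degree of freedom 41.8 to 318).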

Additional observations from a re-analysis of the deposited data

Results flagged for a closer look

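Each tested member, Rbfox2 and the summed levels were examined for a WT liver set apart from the other 4, as the gap to the nearest liver over the whole range. None of 33 values passed the critical value of 0.71, where chance gives 1.65, and the largest among members was 0.672, for Hnrnpab in WT 5.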

How the results depend on the processing

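Of members, 0 passed the adjusted threshold in any setting run. The settings were TMM, other scalings, filters, the non-robust fit, DESeq2, limma-voom, the block, and a threshold of 0.1 in place of 0.05. Each liver was also left out by edgeR or by DESeq2, and the skeletal muscle-rich livers were left out. Of all tested genes, 0 passed an adjusted p of 0.05 in the edgeR and limma-voom settings, other than 6 without a filter. By DESeq2 on all livers 59 passed (0.412%), so the 0 among members was near the share of all genes. With library totals alone, all genes shifted by 0.12 and the medians became 0.23 for SR and 0.18 for hnRNP genes, with ratios of the sums of 1.17 and 1.14, Hnrnpr at 0.0804 and Hnrnpul1 at 0.0365. DESeq2 gave Rbfox2 -1.03 (adjusted p = 0.00186). It gave 2 members at an unadjusted p under 0.05, against 4.94% of all genes, and 1 list gene past the adjusted threshold, against 0.412%. That list gene was Tra2a at 0.47 (adjusted p = 0.00259).

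With each liver left out in turn, members at an unadjusted edgeR p under 0.05 numbered 0 to 2 of 30, against 3.52% to 6.46% of all tested genes (0 without WT 3, WT 4, Rbfox2 KO 2 or Rbfox2 KO 3, and 2 without WT 1, against 5.94%). Members whose groups did not overlap numbered 1 to 4. There were 4 without Rbfox2 KO 1 (against 8.95% of all tested genes in either direction) or Rbfox2 KO 3 (9.55%), 3 without WT 3 (5.52%), and 2 without WT 1 (6.73%), WT 2 (4.71%) or Rbfox2 KO 2 (9.38%). Members above 0 numbered 21 to 24. Medians ran from 0.07 to 0.12 for SR and 0.05 to 0.08 for hnRNP genes, and ratios of the sums from 1.03 to 1.10 and 1.04 to 1.06. Among named genes Birc5 ranged from -0.13 to 1.37, Ccnb1 from -0.78 to 3.13 and Hspa1a from -0.565 to 0.0588, with the sign turned without Rbfox2 KO 1. Srsf7 ranged from -0.0283 to 0.136 (turned without Rbfox2 KO 1), Srsf5 from -0.0430 to 0.0700 (without WT 4, WT 5 or Rbfox2 KO 1) and Hnrnph3 from -0.0271 to 0.157 (without Rbfox2 KO 2). Of 280 such values for 35 single genes, 272 kept direction and side of the threshold, as did 306 of 313 under the other settings. The cause of the changes was not tested. In fits chosen after the data were seen, leaving out WT 4 and WT 5 gave 0 members at an unadjusted p under 0.05, against 3.68% of all tested genes. Leaving out Rbfox2 KO 1 as well gave 6 members whose groups did not overlap, 4 higher and 2 lower, against 19.7%, and a ratio of the SR sums of 1.001.

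The replicate block was fitted on the sample number, which WT 1 to 3 share with Rbfox2 KO 1 to 3. Same-numbered livers correlated in their deviations at 0.16, 0.05 and 0.17, and different numbers from -0.41 to 0.37. No liver correlated best with its own number, and so few values cannot decide whether the livers were paired. With the block 21 of 30 members were above 0 against 50.6% of all tested genes. There was 1 member with an unadjusted p under 0.05, against 5.04% of all tested genes. Rbfox2 had an edgeR adjusted p of 0.285, and Hnrnph3 became -0.0281, Hnrnpul1 0.0306, Srsf5 -0.0998 and Upf3a -0.00058.

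Among members and list genes, only Srsf12 and Srpk3 failed the filter on low counts. Depth also limits Ccnb1 and Aurkb, which passed it. Both had 3 counts in WT 3, the smallest level taken as detected. Counts per gene do not resolve poison exons.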
